A study of Bos taurus with 6 samples.

Results

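The miR-29 family was followed in extracellular vesicles (EVs) that bovine granulosa cells released into their culture medium, by taking its members by name from the list of miRNAs. Of the 6 members sought, 5 were found among the 512 miRNAs of the EV libraries, namely bta-miR-29a, bta-miR-29b, bta-miR-29c, bta-miR-29d-3p and bta-miR-29d-5p. bta-miR-29e was not analysed here. Granulosa cells are the somatic cells that surround the oocyte in the follicle. They were aspirated from slaughterhouse ovaries, from follicles of 3 to 6 mm, and cultured with 10% exosome-depleted serum. After a common first culture, one group was kept at 37 °C (control-EVs, 3 libraries) and the other was exposed to heat stress (HS) at 42 °C for 24 h (HS-EVs, 3 libraries). The cells were primary cells with no genetic change, and each library was made from EVs of spent medium and carried unique molecular identifiers (UMIs), which let copies of one molecule be collapsed.

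miRNAs guide silencing complexes to transcripts mainly through the seed, the short stretch near their 5′ end. The members named miR-29a, miR-29b and miR-29c share a seed and are known as repressors of extracellular matrix transcripts such as collagens, elastin and fibrillin, and of the DNA methyltransferases DNMT3A and DNMT3B. They come from paired genes: in RefSeq's annotation of the ARS-UCD2.0 assembly, which is not the assembly used by the authors, MIR29A lies beside MIR29B-1, MIR29B-2 lies beside MIR29C, and MIR29E lies beside MIR29D. The values of bta-miR-29b therefore join the products of 2 genes, 1 in each of the first 2 pairs. The mature forms of miR-29a, miR-29b and miR-29c are known to be closely similar and the mapping tolerated a mismatch, so that reads could have been split between them. Their sequences were not compared here.

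The authors deposited read counts that they had scaled with TMM factors, which set most miRNAs of a library equal to those of a reference library. Below, the values of a group are listed in the order of its replicates 1 to 3. From the deposited values the whole reads were recovered, 274434 to 2360980 per library. These totals are larger in every library than the numbers of reads mapped to miRNAs that the study tabulates, and the reason is not known here. If a recovered read is less than a captured molecule, intervals and floors based on reads are too narrow, and shares and ratios within a library stay as they are only if the excess is alike for every miRNA, which was not tested. Most of them belonged to bta-miR-1246, which took 59.9% to 84.6% of the reads in control-EVs and 75.6% to 98.6% in HS-EVs. HS-EVs replicate 1 stood apart, with the highest share of bta-miR-1246 and only 34141 reads on other miRNAs, against 73569 to 235634 in the other 5 libraries. Granulosa-linked markers were present (4 of 6 in every library, at a summed normalized count of 1799 to 2135 in control-EVs and 1161 to 2219 in HS-EVs). Markers of other sources were present too: all 3 liver and serum markers (12324 to 25525 in control-EVs and 7605 to 13719 in HS-EVs) and all 7 blood cell markers (834 to 1623 and 590 to 1101) had reads in every library, and their part in the results was not tested.

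The family as a whole was abundant, and its level overlapped between the groups. Its 5 members together had 640, 1832 and 868 reads in the control-EVs libraries, and 362, 1474 and 806 reads in the HS-EVs libraries. With bta-miR-1246 left out of the total, these made up 0.835%, 0.777% and 1.18% of the reads in control-EVs and 1.06%, 1.19% and 0.930% in HS-EVs. The summed normalized count (mean ± SD, n = 3 libraries per group) was 1389 ± 287 for control-EVs and 1474 ± 154 for HS-EVs, and the groups overlapped.

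Within the family the members stood at different levels, compared here as recovered reads per miRNA. Mature miRNAs are of like length, but whether the members were captured alike was not tested. bta-miR-29a was by far the most abundant member, ranking between 19 and 27 of 512 miRNAs in every library and making up 84.5% to 91.4% of the family reads. bta-miR-29c ranked between 84 and 101, and bta-miR-29b between 86 and 143. The order was 29a, 29c, 29b in 5 of the 6 libraries. In HS-EVs replicate 3, bta-miR-29b with 71 reads stood above bta-miR-29c with 51. In HS-EVs the levels of bta-miR-29b (91.1 ± 24.3 normalized counts, SD, n = 3) and bta-miR-29c (96.8 ± 11.9, SD, n = 3) were within their spread, whereas in control-EVs bta-miR-29c lay above bta-miR-29b in each library.

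bta-miR-29a, by reads the main carrier of the family seed in these EVs, did not differ between the groups beyond the spread of the libraries. Its normalized counts were 1029.7, 1165 and 1567 in the control-EVs libraries, against 1290.2, 1448 and 1110.0 in the HS-EVs libraries. The lowest and the highest library were both control-EVs libraries. The group means (± SD, n = 3 each) were 1254 ± 279 for control-EVs and 1283 ± 169 for HS-EVs. In limma's test over all 512 miRNAs on log2(normalized count + 1), bta-miR-29a had a value of 0.047 for the log2 fold change, with 0.43 as its standard error (adjusted p = 0.974). The 95% interval of -0.92 to 1.02 on this log2 scale includes changes of up to about 2.02-fold.

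bta-miR-29c, which shares a gene pair with a copy of bta-miR-29b, also overlapped between the groups. It had 101, 86.5 and 103 normalized counts in the control-EVs libraries, against 103, 104 and 83.1 in the HS-EVs libraries, so that 5 of the 6 libraries lay between 86.5 and 104. The group means (± SD, n = 3 each) were 96.7 ± 8.93 for control-EVs and 96.8 ± 11.9 for HS-EVs, and limma put the log2 fold change at -0.0025 (standard error 0.42, 95% interval -0.94 to 0.94, adjusted p = 0.997). The coefficient of variation between libraries was 9.23% in control-EVs and 12.3% in HS-EVs. It was 22.3% and 13.2% for bta-miR-29a.

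bta-miR-29b, which in human cells is known for a 3′ motif that directs it to the nucleus, had higher values in HS-EVs, although the difference did not pass the test over all miRNAs. Its normalized counts were 44.1, 25.8 and 43.5 in the control-EVs libraries, against 90.4, 67.1 and 116 in the HS-EVs libraries. No library of the heated cells fell within the range of the controls. The mean was 2.41 times as high in HS-EVs, and the log2 fold change was 1.25 (standard error 0.46, 95% interval 0.21 to 2.29), with an unadjusted p of 0.0228 in limma's model across all miRNAs and an adjusted p of 0.870. The difference rests on 24, 37 and 22 reads in control-EVs and 22, 61 and 71 reads in HS-EVs. Without HS-EVs replicate 1 the log2 fold change was 1.24. In EV libraries, a change in the number of EVs that carry a miRNA and a change in its amount per EV cannot be told apart.

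**Figure D1:**
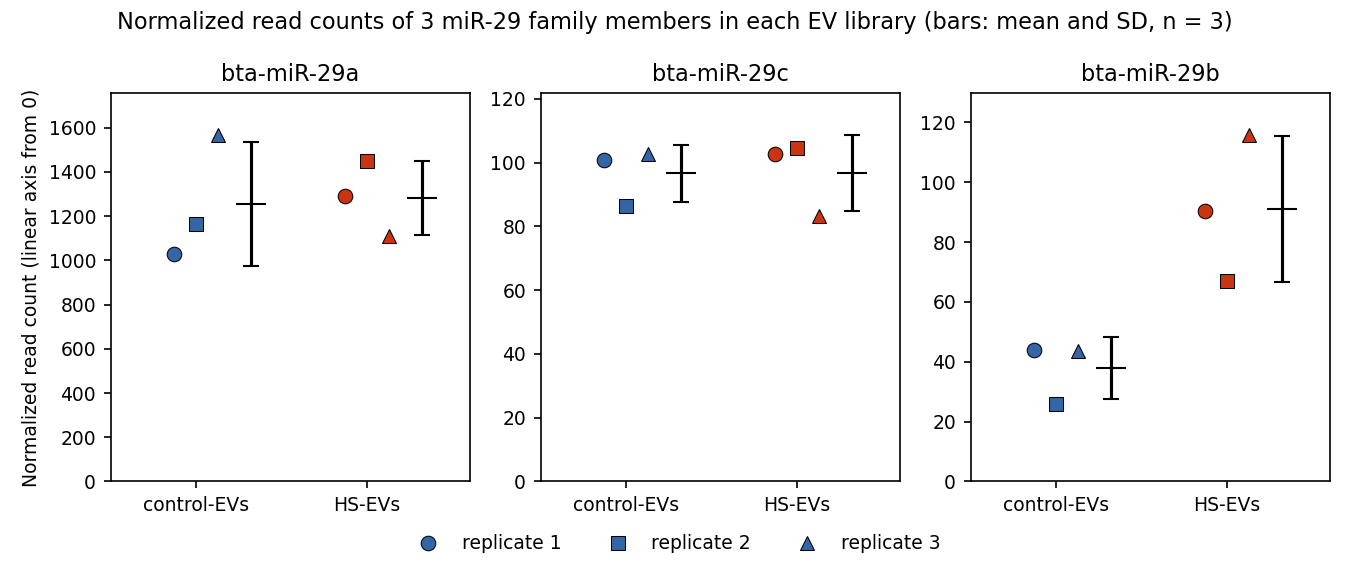
Normalized read counts (linear axes from 0) of bta-miR-29a, bta-miR-29c and bta-miR-29b in the 3 control-EVs (blue) and 3 HS-EVs (red) libraries, with the replicate number as the symbol and mean ± SD as bars. The groups overlap for bta-miR-29a and bta-miR-29c, whereas for bta-miR-29b the HS-EVs libraries (67.1 to 116) lie above the control-EVs libraries (25.8 to 44.1).

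bta-miR-29d-3p and bta-miR-29d-5p, the products of MIR29D, were at or below the floor of 3 reads in every library. bta-miR-29d-3p had 1 read in control-EVs replicate 3, 1 read in HS-EVs replicate 1 and 0 reads in the other 4 libraries. bta-miR-29d-5p had 0 reads in the control-EVs libraries and 0, 2 and 3 reads in HS-EVs replicates 1 to 3. None of these counts exceeds 3 reads, the floor set per library, which only bta-miR-29d-5p in HS-EVs replicate 3 reached, and a count of 0 allows 0.00127% to 0.00879% of the reads that did not belong to bta-miR-1246. No fold change is therefore given for these 2 members.

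The study's criterion for EVs was an adjusted p of at most 0.3 with at least 1 on the log2 scale in either direction. The study applied it with edgeR and called other miRNAs, but no member. By this criterion, 0 of the 5 members were called by limma, where 0% of all 512 miRNAs were called. At an unadjusted p of 0.05 or less limma gave 25 of the 512. Higher in HS-EVs at this level were 1 of the 5 members, bta-miR-29b, and 2.73% of all miRNAs, and lower were 0 members and 2.15% of all miRNAs. On the recovered reads, edgeR's quasi-likelihood test called 3 miRNAs and DESeq2 0, with no member among them. bta-miR-29b came closest in the quasi-likelihood test, with an adjusted p of 0.316 and an unadjusted p of 0.00297 across all miRNAs (DESeq2 adjusted p = 0.995). Over the alternatives tried its adjusted p lay between 0.316 and 0.995.

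Only 3 members, bta-miR-29a, bta-miR-29b and bta-miR-29c, had 10 or more reads in every library, as had 130 of the 512 miRNAs. Of these 3, 2 had a log2 fold change above 0 and 1 below, with a median of 0.047, beside a median of 0.038 over the 130 miRNAs. The log2 fold change of bta-miR-29b ranked 3 among the 130, that of bta-miR-29a 65 and that of bta-miR-29c 70. Groups that did not overlap, with HS-EVs higher, were found in 1 of the 5 members, against 3.71% of all 512 miRNAs and 4.62% of the 130.

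**Figure D2:**
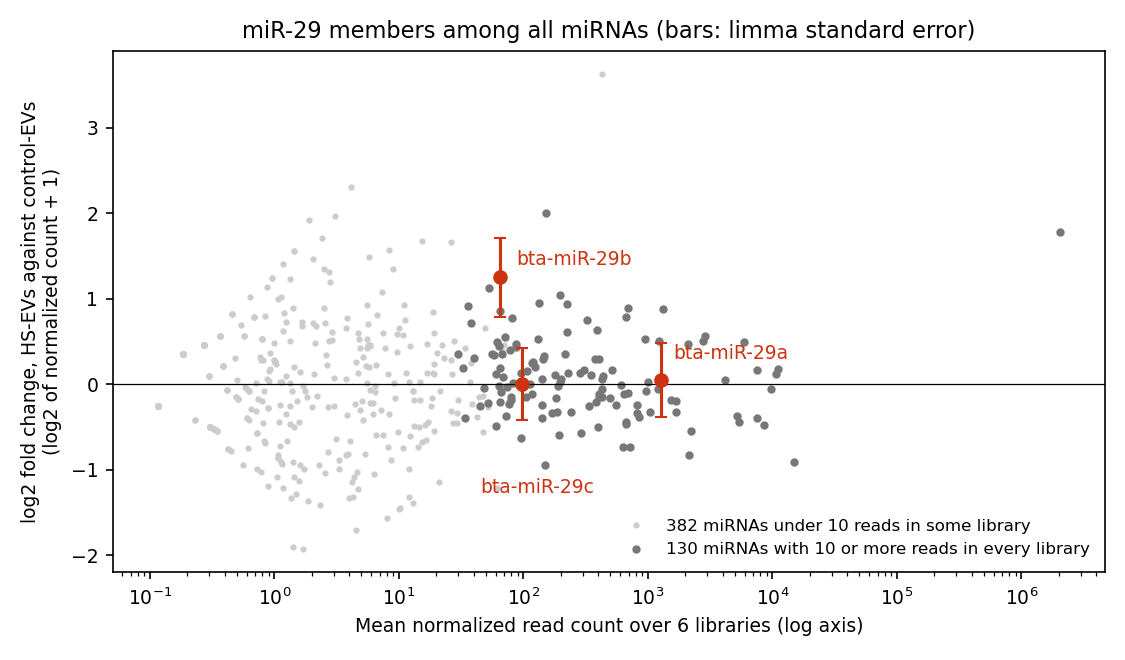
log2 fold change between HS-EVs and control-EVs against the mean normalized read count over the 6 libraries (log axis) for all 512 miRNAs, with bta-miR-29a, bta-miR-29b and bta-miR-29c in red and their standard errors from limma as bars. bta-miR-29a and bta-miR-29c lie at 0.047 and -0.0025, in the middle of the miRNAs with 10 or more reads in every library (dark grey), and bta-miR-29b lies near their upper edge at 1.25.

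Whether the family moved together was examined within each library, where the share of one member does not depend on the scaling between libraries. Of the family reads, bta-miR-29b took 3.75%, 2.02% and 2.53% in the control-EVs libraries, against 6.08%, 4.14% and 8.81% in the HS-EVs libraries. All HS-EVs shares were higher than all control-EVs shares. The mean share (± SD, n = 3 each) was 2.77% ± 0.888 for control-EVs and 6.34% ± 2.35 for HS-EVs, a difference of 3.57 percentage points, which was 2.34 without HS-EVs replicate 3. A two-sided exact permutation test gave p = 0.1, and 3 libraries against 3 allow no smaller value (0.3 adjusted over the 3 members). The nearest libraries of the groups were not separated by counting error: the 95% Wilson interval was 2.53% to 5.52% in control-EVs replicate 1 and 3.24% to 5.28% in HS-EVs replicate 2. These intervals cover counting error only.

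The other members made up the rest. The share of bta-miR-29a (mean ± SD, n = 3 each) was 90.1% ± 2.10 for control-EVs and 86.8% ± 2.40 for HS-EVs (exact permutation test, p = 0.2, adjusted 0.3), and the groups overlapped. That of bta-miR-29c was 7.12% ± 1.34 and 6.56% ± 0.306 (exact permutation test, p = 0.8). Since reads of bta-miR-29a and bta-miR-29c could have been exchanged, both were also summed, and their joint share averaged 97.2% in control-EVs and 93.4% in HS-EVs. Apart from the few reads on the miR-29d arms, this joint share is the remainder of the bta-miR-29b share and no separate evidence.

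**Figure D3:**
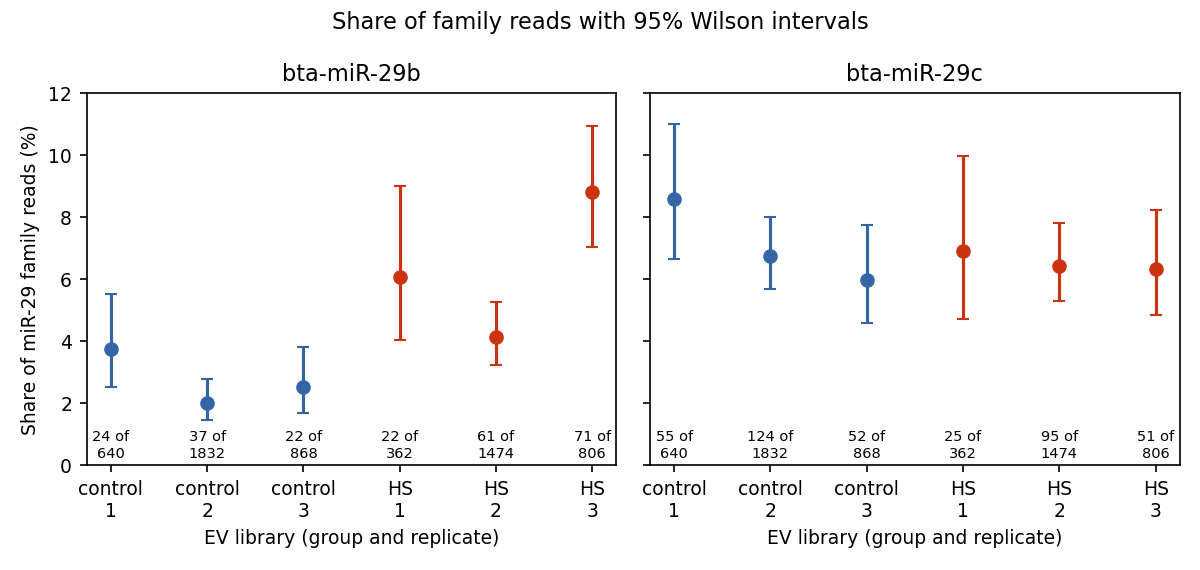
Share of the miR-29 family reads (%) taken by bta-miR-29b and bta-miR-29c in each library of control-EVs (blue) and HS-EVs (red), with 95% Wilson intervals as bars and the reads of the miRNA and of the family printed below each point. The bta-miR-29b share is 2.02% to 3.75% in control-EVs and 4.14% to 8.81% in HS-EVs, while the bta-miR-29c shares of the groups overlap.

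The ratios between members restate these reads without the total of the family, and are given as a description of how the members stood to each other. For each read of bta-miR-29c there were 0.436, 0.298 and 0.423 reads of bta-miR-29b in the control-EVs libraries, against 0.880, 0.642 and 1.39 in the HS-EVs libraries. The groups did not overlap, and the geometric mean of the ratio was 2.43 times as high in HS-EVs (log2 difference 1.28). How often other miRNAs separate the groups when set against bta-miR-29c was not counted. The ratio of bta-miR-29b to bta-miR-29a, its neighbour in the other gene pair, was 0.0428, 0.0221 and 0.0277 in control-EVs and 0.0701, 0.0464 and 0.104 in HS-EVs, 2.34 times as high by the geometric means. As bta-miR-29a makes up most family reads, this ratio follows the share of bta-miR-29b closely. The groups did not overlap here either, with HS-EVs higher. Each of the 129 other miRNAs with 10 or more reads in every library was set against bta-miR-29a in the same way. Groups that did not overlap, with HS-EVs higher, were found in 1.55% of them. These were 2 miRNAs, bta-miR-29b and bta-miR-99b, the latter named after its values were seen. Ratios that did not overlap with HS-EVs lower were not counted. In contrast, the ratio of bta-miR-29c to bta-miR-29a (mean ± SD, n = 3 each) was 0.0793 ± 0.0168 for control-EVs and 0.0756 ± 0.00376 for HS-EVs, and the groups overlapped.

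Across the 6 libraries, the members' log2 normalized counts were compared in 3 pairs by permutation of the libraries. bta-miR-29a and bta-miR-29c had a Pearson's r of 0.55 (exact permutation p = 0.269, adjusted 0.808) and a Spearman's rho of 0.77 (exact permutation p = 0.103, adjusted 0.308), and r was 0.94 without the 2 libraries farthest from the median of bta-miR-29a. For bta-miR-29b, r was -0.0048 with bta-miR-29a (rho -0.20; exact permutation p = 0.983 and 0.714, adjusted 0.983 and 0.803) and -0.024 with bta-miR-29c (rho -0.14; exact permutation p = 0.981 and 0.803, adjusted 0.983 and 0.803). Without the 2 libraries farthest from the median, these r values were 0.046 and 0.48. None of the 3 pairs passed the test, and differences between the correlations were not tested.

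The miRNAs most like each member were sought among the 127 non-members with 10 or more reads in every library, by Pearson's r of log2 normalized counts over 6 libraries, as a description with no test. bta-miR-29a was most like bta-miR-27a-3p (r = 0.93), bta-miR-132 (0.83) and bta-miR-192 (0.65). bta-miR-29c was most like bta-miR-15a (0.91), bta-miR-497 (0.81) and bta-miR-1343-3p (0.72). bta-miR-29b was most like bta-miR-99b (0.97), bta-miR-150 (0.97) and bta-miR-23b-3p (0.93). As r runs over both groups, it includes the group difference, and the group values of these 3 miRNAs are no separate evidence. All 3 are, like bta-miR-29b, in a list the study drew up from these libraries. The lists of the 3 members share no miRNA. bta-miR-99b had normalized counts of 91.8, 69.7 and 111 in the control-EVs libraries, against 156, 141 and 236 in the HS-EVs libraries, and like bta-miR-29b it was lowest in control-EVs replicate 2 and highest in HS-EVs replicate 3. bta-miR-150, which is known from lymphocytes and is one of the 7 blood cell markers, had 29.4, 18.1 and 25.7 in control-EVs and 45.2, 31.9 and 66.8 in HS-EVs. The 7 blood cell markers together had summed normalized counts of 1623, 848 and 834 in control-EVs and 1101, 590 and 760 in HS-EVs. These sums overlapped between the groups and were not tested, and the highest was that of control-EVs replicate 1.

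Other miRNAs with the roles ascribed to miR-29 were taken as 2 lists. Of 7 miRNAs known to act on DNA methyltransferases or on the histone methyltransferase EZH2, all with 10 or more reads in every library, 0 were called and 0 had an unadjusted p of 0.05 or less in limma's test, where 0% and 4.88% of all 512 miRNAs did. Their log2 fold changes were above 0 in 4 and below 0 in 3, with a median of 0.059. The largest in size was that of bta-miR-148a, a repressor of DNMT1, with 1435, 3812 and 3181 normalized counts in the control-EVs libraries, against 1409, 1689.5 and 1299 in the HS-EVs libraries. limma put its log2 fold change at -0.83 (standard error 0.50, adjusted p = 0.873), and control-EVs replicate 1 lay within the HS-EVs range. bta-miR-342 followed with 0.29 (standard error 0.45, adjusted p = 0.892 from limma).

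Of 11 miRNAs known from matrix production and fibrosis, 6 had 10 or more reads in every library, 0 of the 11 were called and 0 had an unadjusted p of 0.05 or less, beside the same shares of all miRNAs. The median log2 fold change was 0.022 over the 11 and -0.030 over the 6, of which 3 were above and 3 below 0. The largest among the 6 were those of bta-miR-34a, a p53 target, at 0.44 (standard error 0.50, adjusted p = 0.873 from limma), and bta-miR-199a-3p, a miRNA of mesenchymal cells, at -0.38 (standard error 0.45, adjusted p = 0.873 from limma). The groups overlapped in all 18 miRNAs of the 2 lists. Among all 512 miRNAs, groups that did not overlap, with HS-EVs higher, were found in 3.71%. The share with HS-EVs lower was not counted.

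The log2 fold changes were also computed under 17 other processing choices. Several of these could not change the distance between members: a rescaling of the libraries moves all members nearly alike, and the filter, the trend and the replicate block leave the fold changes as they were. Scaling by all reads, bta-miR-1246 included, moved the log2 fold changes of the 130 miRNAs to a median of -1.46. bta-miR-29a and bta-miR-29c were then both at -1.48 and bta-miR-29b at -0.21, which is 1.25 above that median. This direction rests on HS-EVs replicate 1, where bta-miR-29b took 0.00093% of all reads, against 0.0120% and 0.0127% in the other HS-EVs libraries and 0.0048% to 0.0080% in control-EVs. Without that library, an alternative chosen after seeing the data, the log2 fold changes under this scaling were 0.96 for bta-miR-29b (unadjusted p = 0.0622 and adjusted p = 0.862 from limma), -0.24 for bta-miR-29a and -0.32 for bta-miR-29c, beside a median of -0.21 over the 130. With reads scaled by those on miRNAs other than bta-miR-1246, the log2 fold changes were 0.15 for bta-miR-29a, 0.10 for bta-miR-29c and 1.35 for bta-miR-29b. As a share of these reads, bta-miR-29b (mean ± SD, n = 3 each) was at 0.0256% ± 0.00864 for control-EVs and 0.0652% ± 0.0163 for HS-EVs.

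**Figure D4:**
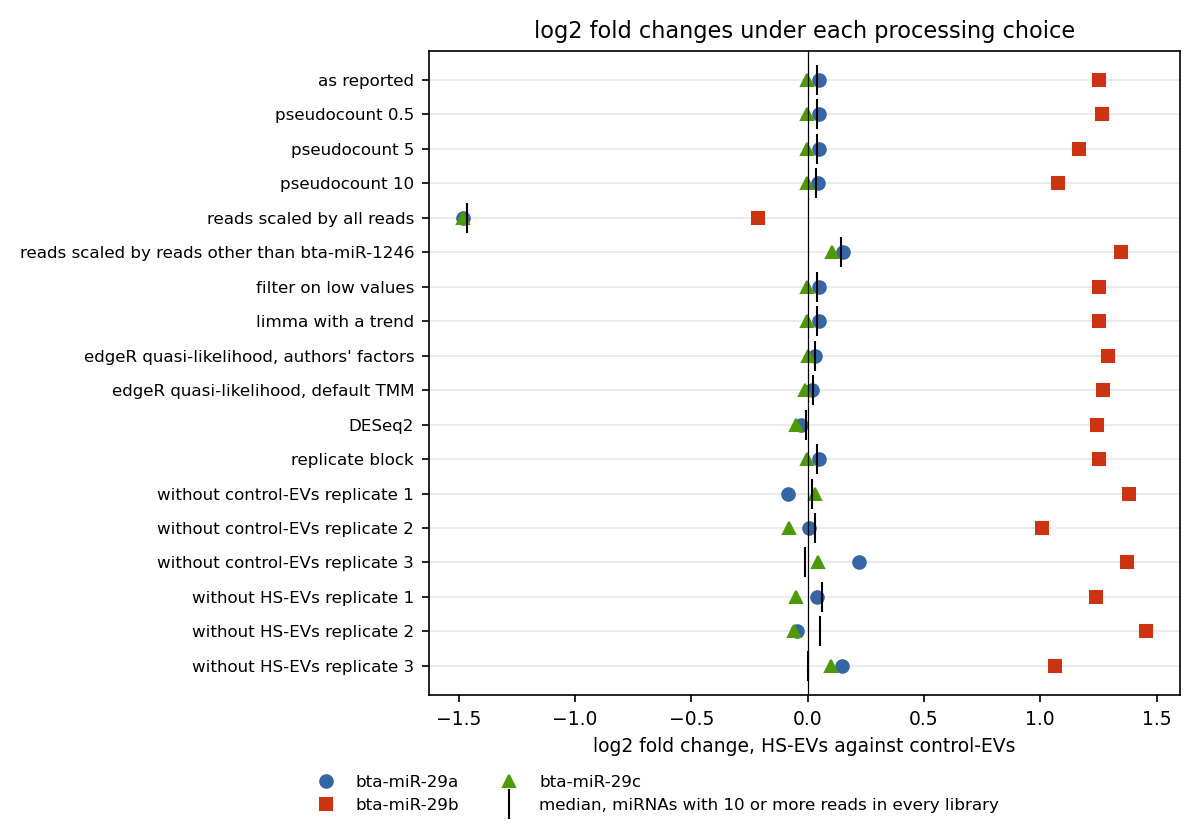
log2 fold changes of bta-miR-29a (circles), bta-miR-29b (squares) and bta-miR-29c (triangles) between HS-EVs and control-EVs as reported and under 17 other processing choices, with the median of the 130 miRNAs with 10 or more reads in every library as a vertical tick. Rescaling moves the members and the tick nearly together, to -0.21 for bta-miR-29b and -1.48 for the others when reads are scaled by all reads, and the rows of the filter, the trend and the replicate block repeat the reported values.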

How the data were processed

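Small RNA libraries of 6 EV samples were analysed, grouped by the deposited titles. Per the methods and the submitters' processing notes, the authors trimmed reads with cutadapt (1.11), collapsed reads with one UMI, mapped them with Bowtie2 (2.2.2) to UMD3.1 and then to miRBase, and normalized with TMM in edgeR. The deposited values are normalized read counts, a signal that is never negative. Within a library 100% of values were whole multiples (within 0.1) of the smallest value above 0, which was taken as 1 read. The largest distance was 0.000199. Libraries held 274434 to 2360980 reads, and a floor of 3 reads was used.

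limma (3.58.1, R 4.3.3) was fitted on log2(normalized count + 1) over all 512 miRNAs with Benjamini-Hochberg adjustment. It was also run on simulated data, with changes larger than that of bta-miR-29b. How well limma finds a change of the size of bta-miR-29b was therefore not tested. Such fold changes understate the change of miRNAs with few reads. Count tests on the recovered reads (edgeR 4.0.16, DESeq2 1.42.0) served as alternatives. Shares were compared with exact permutation tests, which have 10 divisions into 3 and 3 (scipy 1.17.1). The alternatives were other pseudocounts, scalings, a filter, other tests, a replicate block and leaving out each library.

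The members and lists were chosen with earlier results of these data known. bta-miR-29b is in a list the study drew up from these libraries, so that its direction is not independent evidence. It did not meet the study's criterion on adjusted p there. Named were all members, the 2 miRNAs of each list with the largest absolute log2 fold change and 10 or more reads in every library, the 3 non-members most correlated with each member, and bta-miR-1246.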

Additional observations from a re-analysis of the deposited data

How the results depend on the processing

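0 members were called under any of the 17 alternatives, and bta-miR-29b was higher in HS-EVs under 16 of them, each with an unadjusted p of 0.05 or less; the filter, the trend and the replicate block cannot move its fold change. Under scaling to the total of a library, the log2 fold changes were -1.48 (bta-miR-29a), -0.21 (bta-miR-29b) and -1.48 (bta-miR-29c), with a member median of -1.48 and a median of -0.75 over the 512 miRNAs. Without HS-EVs replicate 1, an alternative chosen after seeing the data, this scaling gave -0.24, 0.96 and -0.32, a member median of -0.24 and 0 calls. Values near 0 changed sign elsewhere: bta-miR-29c was at 0.10 with reads scaled by those other than bta-miR-1246 and at 0.0021 under edgeR's quasi-likelihood test if it used the authors' factors, and bta-miR-29a was at -0.027 in DESeq2; the cause was not tested. With each library left out, the log2 fold changes ranged from -0.084 to 0.22 (bta-miR-29a), 1.01 to 1.45 (bta-miR-29b) and -0.080 to 0.10 (bta-miR-29c), their median from -0.045 to 0.22, and the share differences from -4.46 to -2.07, 2.34 to 4.68 and -1.12 to 0.18 percentage points for bta-miR-29a, bta-miR-29b and bta-miR-29c. The share difference of bta-miR-29b was lowest without HS-EVs replicate 3 (2.34 percentage points).

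Over all 512 miRNAs, the number called was 0 as reported, 1 with a pseudocount of 0.5, 2 with limma's trend, 3 in both quasi-likelihood tests and 0 to 4 with each library left out (4 without control-EVs replicate 2, 3 without HS-EVs replicate 2, 2 without HS-EVs replicate 1); the cause was not tested. Same-numbered libraries deviated from their group means with correlations of 0.14, 0.14 and 0.079, and nothing states that they share a culture. With the replicate number as a replicate block, the adjusted p of bta-miR-29b was 0.739 at the log2 fold change of 1.25, and 0 miRNAs were called. Summing all members leaves no share to compare, so that their summed count is given instead. The 22 to 71 reads on bta-miR-29b limit the precision of its values, and the 0 to 3 reads on the miR-29d arms allow no comparison.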
